A study of Mus musculus with 4 samples.

Results

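Hormones and other proteins secreted by fat cells were followed through 9 of their genes in mature adipocytes of the skin and of the groin: Lep, Adipoq, Retn, C1qtnf3, Rarres2, Agt, Nampt, Hp and Ccdc80. They were taken by gene symbol, all 9 were present among the 18781 genes of the deposited table, and all 9 passed the filter on low values. RNA was sequenced from dermal adipocytes (labelled dWAT), taken from fat within the back skin, and from inguinal adipocytes (labelled sWAT), which came from the subcutaneous pad of the groin. Both groups were C57BL/6 mice at postnatal day 30, carried no transgene or treatment in the labels, and gave 2 libraries each. The adipocytes were freed with collagenase IV and dispase II and collected because they float, so cells that stay attached to them can be carried along, and the labels do not say how many mice a library came from.

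White adipocytes are endocrine cells as well as fat stores. Leptin reports the size of the fat store to the brain, adiponectin circulates as multimers and raises insulin sensitivity, and resistin is, in the mouse, a product of adipocytes. The other members include a chemoattractant precursor, the precursor of the angiotensin peptides, an enzyme of NAD synthesis, a haemoglobin carrier and a matrix glycoprotein. The question was which of these transcripts differ between the fat of the skin and the fat of the groin, and whether the receptors and partners of each differ too.

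Of the 9 transcripts, 6 were higher in dermal adipocytes (Lep, Agt, Hp, Ccdc80, Rarres2 and C1qtnf3), 1 was lower (Nampt), and 2 did not pass (Adipoq and Retn). The 7 calls came down to 3 when dermal replicate 1 was left out and to 4 when dermal replicate 2 was. The test was limma on log2(CPM + 0.5) over the 12797 genes that reached 1 CPM in 2 or more libraries, and a gene passed when its Benjamini-Hochberg adjusted p was below 0.05, two-sided. CPM are normalized counts per unit of library size, as the authors deposited them. Of all tested genes, 16.4% passed, 7.56% as higher in dermal libraries and 8.8% as lower. The same shares are to be set beside the counts of every gene list and marker list below. The libraries of the depots did not overlap for 8 of the 9 members, where this held for 61.8% of all tested genes: 7 members lay higher in dermal libraries, against 31.6% of all tested genes, and 1 lay lower, against 30.1%. Scaling the columns to 6 adipocyte markers, chosen after the data were seen, gave 2171 calls higher and 934 lower over all genes, in place of 968 and 1126, and moved the median of all tested genes by 0.22. In that fit limma gave every gene the spread of the trend in place of its own, so its p-values are not on a par with the others. The median log2 fold change, dermal over inguinal, was 0.78 over the 9 members and 0.02 over all tested genes. The members were chosen with earlier results of these data known, so neither the counts nor this median test them as a set. C1qtnf3 passed the filter on low values through the dermal libraries alone, so its part in the counts was fixed. In bulk RNA, more cells of a type and more RNA per cell cannot be told apart.

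**Figure D1:**
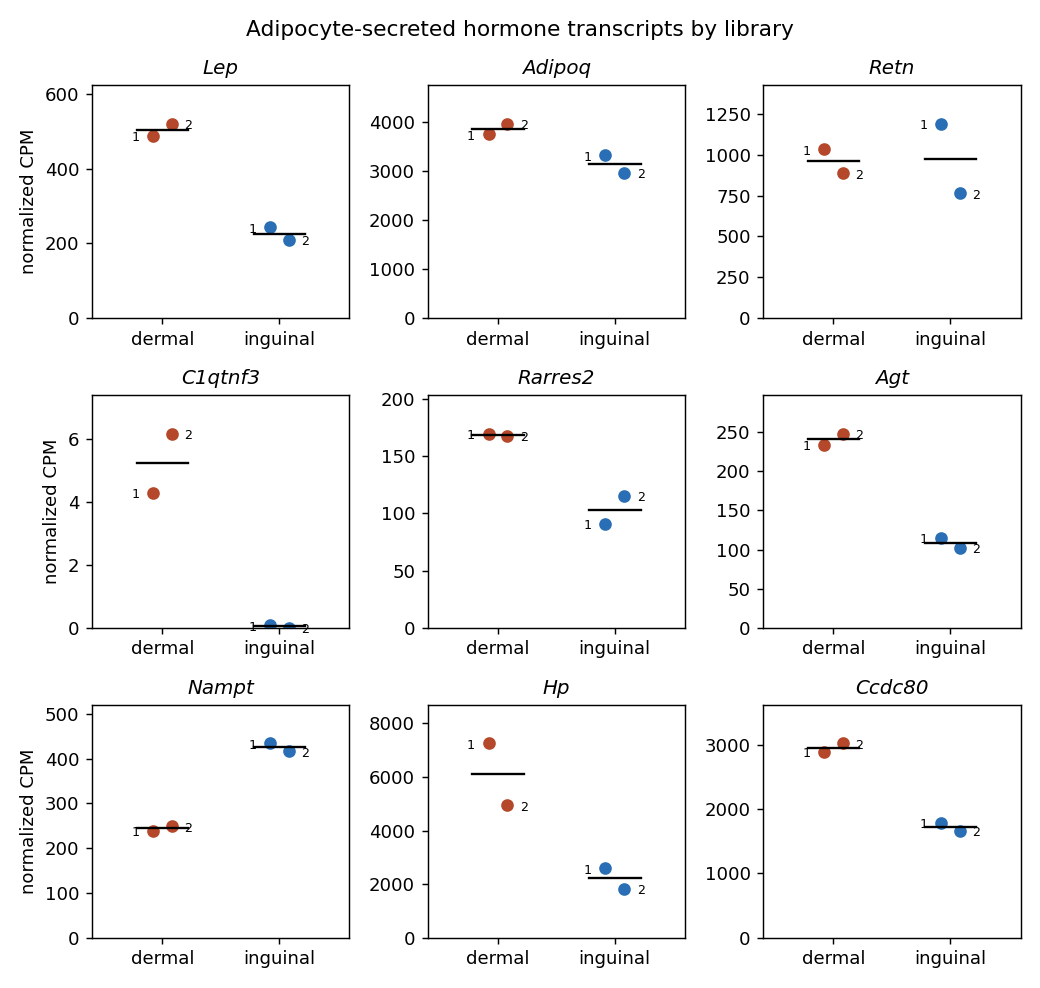
Normalized CPM of the 9 hormone transcripts in each library, from 0, with dermal libraries at left, inguinal libraries at right, replicate numbers beside the points and a bar at the mean of 2 libraries. Lep, Adipoq, Agt, Hp, Ccdc80, Rarres2 and C1qtnf3 lie higher in both dermal libraries, Nampt lies lower, and the depots overlap for Retn. The difference of Adipoq did not pass the test.

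The libraries held 10794480 and 10127125 reads assigned to genes in dermal adipocytes and 12730013 and 10165094 in inguinal adipocytes, and 3 reads were worth 0.253 to 0.291 CPM. Markers of mature adipocytes were abundant in every library: the 8 markers summed to 37982 and 34571 CPM in dermal adipocytes, against 40311 and 36971 CPM in inguinal libraries, and of the 8 only Plin1, the lipid droplet coat gene, passed, as higher in dermal libraries, and its call ended without dermal replicate 2 (limma adjusted p = 0.0850). Markers of other cells were present in unequal amounts. All 9 macrophage markers were higher in dermal libraries, with sums of 1671 and 1582 CPM against 554 and 510.3 CPM, whereas all 6 endothelial markers were lower in dermal libraries, with sums of 354 and 399.8 CPM against 1255 and 1953 CPM. Of 5 pericyte and smooth muscle markers 4 were lower in dermal libraries and 1, Cspg4, was higher. Their sums were 289 and 273 CPM in dermal adipocytes, against 318 and 370 CPM in inguinal libraries. The calls of Acta2, Pdgfrb and Cspg4 ended under some alternatives. None of the 9 fibroblast and progenitor markers passed. Their sums were 4820.4 and 10496 CPM in dermal adipocytes, against 3346 and 5599 CPM in inguinal libraries, higher in replicate 2 of both depots. Of 4 tested keratinocyte markers 3 were higher in dermal libraries, with list sums of 32.9 and 14.7 CPM against 2.53 and 1.75 CPM. The markers Krt5 and Krt15 were found nearly only in dermal libraries, at 5.28 and 3.13 CPM for Krt5 and 3.19 and 3.32 CPM for Krt15, against 0.0844 and 0 CPM for either in inguinal libraries. They and Dsp, the third, passed the filter on low values through the dermal libraries alone, so they had to differ.

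Lep, which encodes leptin, measured 488 and 519.8 CPM in dermal adipocytes, against 243 and 209 CPM in inguinal adipocytes. Both dermal libraries lay above both inguinal ones, and the mean was 504 ± 22.5 CPM against 226 ± 23.8 CPM (SD, n = 2 each), 2.23 times as high. The log2 fold change was 1.16 (SE 0.14, limma adjusted p = 0.00437). Agt, which encodes angiotensinogen, the only precursor of the angiotensins, measured 234 and 248 CPM in dermal adipocytes, against 115 and 102 CPM in inguinal adipocytes, with no overlap. Its mean was 2.22 times as high in dermal libraries and its log2 fold change was 1.15 (SE 0.13, limma adjusted p = 0.00362).

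Lep and Agt had almost the same pattern. Among 8724 tested genes with a mean of at least 10 CPM, Agt lay nearest to Lep, and Lep lay nearest to Agt, by the Euclidean distance of log2 values centred over the 4 libraries (0.04). Agt CPM amounted to 47.9% and 47.7% of Lep CPM in dermal libraries and to 47.3% and 49.0% in inguinal libraries. The ratio of the pair thus moved far less than either gene. A steady ratio restates the small distance by which the pair was picked, so it is no separate result. The next nearest to Lep were Fcna and Rtn4rl1, and the next nearest to Agt were Fcna and Tspan17, at distances of 0.07 to 0.10. Distances over 4 libraries describe these libraries only. The promoters of the pair are shown because the genes moved together. The sequences below are the 250 bases before the transcript start, 5′ to 3′, from RefSeq on GRCm38.p6, with capitals marking the motifs searched: TATAAA on the sense strand, and TTGCNNAA, GGGCGG and CCAAT on both strands.
Lep promoter, chr6:29059971-29060220, plus strand: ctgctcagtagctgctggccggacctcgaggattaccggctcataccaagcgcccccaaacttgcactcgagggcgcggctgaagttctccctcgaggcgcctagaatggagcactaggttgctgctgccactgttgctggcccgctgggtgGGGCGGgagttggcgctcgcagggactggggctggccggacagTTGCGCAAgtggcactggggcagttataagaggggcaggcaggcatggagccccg
Agt promoter, chr8:124569707-124569956, minus strand: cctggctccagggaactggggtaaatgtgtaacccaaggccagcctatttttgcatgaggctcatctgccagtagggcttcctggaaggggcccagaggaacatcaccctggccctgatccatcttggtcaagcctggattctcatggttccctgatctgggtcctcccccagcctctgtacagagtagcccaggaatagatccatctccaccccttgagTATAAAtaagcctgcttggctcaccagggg

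The Lep window held TTGCGCAA, a palindrome that fits the C/EBP pattern TTGCNNAA, from base 55 to base 48 before the start, and 1 GGGCGG, the core of Sp1 sites, from base 98 to base 93. The Agt window held TATAAA from base 30 to base 25 before the start and neither of those letters. Of 32851 promoter windows of the same length, 9.56% held TTGCNNAA, 32.7% held GGGCGG, 7.59% held TATAAA and 33.8% held CCAAT. The 2 windows therefore shared no searched motif. Only exact letters were searched, and near its end the Lep window holds tataag, which differs from TATAAA in the last base. A match describes these letters and is not evidence of binding.

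Cebpa encodes C/EBPα, a factor of mature adipocytes that acts on the leptin promoter. It measured 339 and 409.6 CPM in dermal adipocytes, against 223 and 180.4 CPM in inguinal adipocytes, with no overlap (log2 fold change 0.89, SE 0.17, limma adjusted p = 0.0173). Without dermal replicate 2 this call ended (0.76, adjusted p = 0.0984). Of 14 transcription factor genes tied to adipokine promoters, 3 were higher in dermal libraries, 2 were lower and 9 did not pass, with a median log2 fold change of 0.31 against 0.02 over all tested genes. The 5 calls came to 2 without dermal replicate 1, 3 without dermal replicate 2 and 3 with no intensity trend. Klf15, a glucocorticoid-induced Krüppel-like factor, was higher (0.88, limma adjusted p = 0.0266), a call that ended without dermal replicate 1 (0.71, adjusted p = 0.142). The Klf15 call was lost with no intensity trend too (limma adjusted p = 0.0605). Rxra, the partner of PPARγ, was also called higher (0.46, limma adjusted p = 0.0474). That call was lost under 7 of 15 alternatives, among them without dermal replicate 1 (adjusted p = 0.306), dermal replicate 2 (0.2498) and inguinal replicate 1 (0.0756). Ebf2, a factor of brown and beige adipocytes, was lower in dermal libraries (-2.76, limma adjusted p = 0.00166), as was Hif1a, the oxygen-regulated factor (-0.91, adjusted p = 0.0145, or -0.74 and 0.0918 without dermal replicate 1). Pparg, the adipocyte master regulator, measured 485 and 529 CPM in dermal adipocytes, against 426 and 585 CPM in inguinal adipocytes, and Srebf1, a lipogenic factor, 594 and 779.7 CPM against 432 and 482 CPM. Neither passed (limma adjusted p = 0.952 and 0.0720).

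Along the leptin pathway, the receptor gene and the genes of its signalling chain differed in both directions. Lepr, which encodes the leptin receptor, measured 21.4 and 38.9 CPM in dermal adipocytes, against 7.43 and 7.56 CPM in inguinal adipocytes, so both dermal libraries were higher (log2 fold change 1.88, SE 0.29, limma adjusted p = 0.00937). Jak2, the kinase bound to the receptor, measured 94.0 and 101 CPM in dermal adipocytes, against 227 and 282 CPM in inguinal adipocytes (-1.37, SE 0.15, limma adjusted p = 0.00346). Socs3, the feedback inhibitor that STAT3 induces, measured 83.3 and 121 CPM in dermal adipocytes, against 442 and 482 CPM in inguinal adipocytes (-2.19, SE 0.19, limma adjusted p = 0.00223). Both were lower in both dermal libraries. Of the 9 genes of this list, 3 were higher (Lepr, Irs1, Sh2b1), 3 were lower (Jak2, Stat3, Socs3) and 3 did not pass. Their median was 0.03, and the share that passed over all tested genes was 16.4%. Leaving out either dermal library reduced the 6 calls to 3.

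Irs1, an insulin receptor substrate, stood at 0.76, Sh2b1, an adaptor that strengthens JAK2 signalling, at 0.71, and the transcription factor gene Stat3 at -0.59 on the log2 scale. All 3 calls ended without dermal replicate 1 (limma adjusted p = 0.0749 for Irs1, 0.1701 for Sh2b1 and 0.158 for Stat3) and without dermal replicate 2 (0.0753, 0.149 and 0.173). That of Stat3 also ended under 4 other alternatives. Socs3 is induced by many cytokines and by tissue handling. Of 7 immediate early genes, which respond to dissociation, 4 were lower in dermal libraries and 3 did not pass, with sums of 1162 and 1854 CPM in dermal adipocytes, against 3561 and 4156 CPM in inguinal libraries. Their part in the Socs3 result was not tested.

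**Figure D2:**
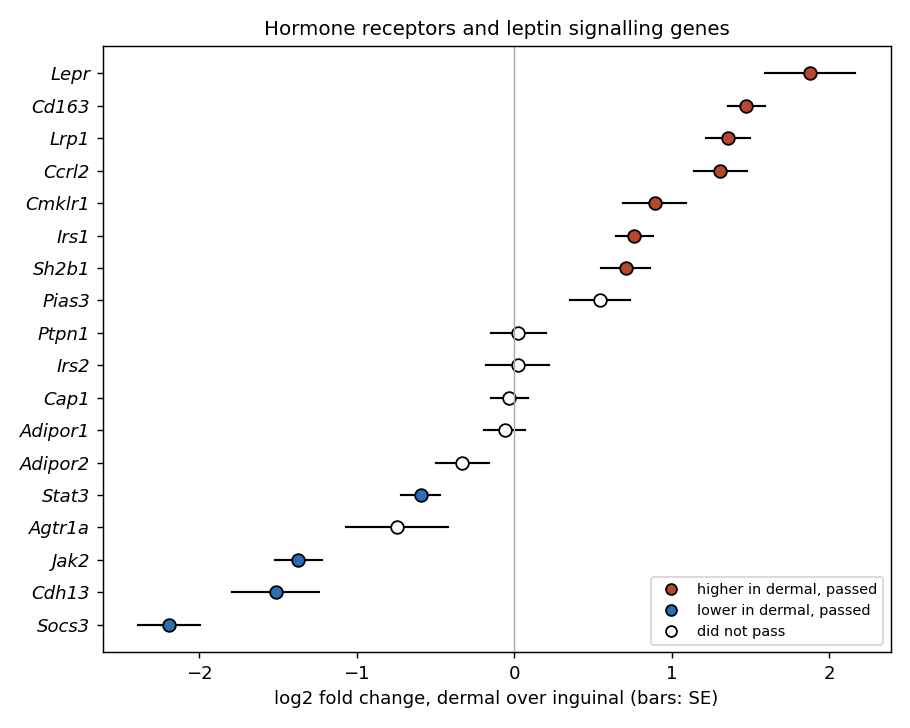
Log2 fold change, dermal over inguinal, of the tested receptors and binding partners of the hormones and of the leptin signalling genes, with bars of 1 SE (2 libraries per depot). Lepr lies highest at 1.88 and Socs3 lowest at -2.19, and open points did not pass.

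Adipoq, which encodes adiponectin, was among the most abundant transcripts per length in both depots and did not pass the test. It measured 3745 and 3964 CPM in dermal adipocytes, against 3324 and 2965 CPM in inguinal adipocytes. Both dermal libraries lay above both inguinal ones, and the means were 3854 ± 155 and 3144 ± 254 CPM (SD, n = 2 each). The log2 fold change was 0.30 (SE 0.19, limma adjusted p = 0.342), and its 95% interval ran from -0.17 to 0.76, so a difference of nearly 0.8 in favour of dermal fat was within the error. The nearest patterns to Adipoq were those of Reep5, Atg4d and Tfb1m. Its promoter is shown because it differs in its motifs from that of Lep.
Adipoq promoter, chr16:23146286-23146535, plus strand: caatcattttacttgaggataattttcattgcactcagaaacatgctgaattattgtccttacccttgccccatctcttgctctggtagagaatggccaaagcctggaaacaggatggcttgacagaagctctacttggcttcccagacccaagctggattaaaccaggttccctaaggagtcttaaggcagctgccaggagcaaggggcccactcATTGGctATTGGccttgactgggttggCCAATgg

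This window held CCAAT in the sense direction from base 7 to base 3 before the start and its reverse complement ATTGG at 2 other places, and none of TATAAA, TTGCNNAA or GGGCGG. Because Adipoq marks mature adipocytes, each hormone was also set against it inside each library, where the authors' scaling cancels. Lep CPM came to 13.0% and 13.1% of Adipoq CPM in dermal adipocytes and to 7.30% and 7.04% in inguinal adipocytes. The pair of Agt values was 6.24% and 6.26% in dermal against 3.45% and 3.45% in inguinal adipocytes. Nampt came to 6.40% and 6.28% in dermal and 13.1% and 14.1% in inguinal adipocytes. The depots did not overlap in these ratios for Lep, Agt, Nampt, Hp, Ccdc80, C1qtnf3 and Rarres2, and overlapped for Retn. Over all other tested genes the same ratio did not overlap for 66.5%.

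Among the adiponectin receptors, Adipor1 measured 105 and 120.4 CPM in dermal adipocytes, against 119.9 and 115 CPM in inguinal adipocytes, and Adipor2 1246 and 1163 CPM against 1657 and 1383 CPM. Neither passed (limma adjusted p = 0.792 and 0.2296). Cdh13, which encodes T-cadherin, a binding protein of adiponectin multimers, was lower in dermal libraries, at 24.0 and 31.2 CPM against 59.9 and 105 CPM (log2 fold change -1.52, SE 0.28, limma adjusted p = 0.0168). Endothelial cells also express Cdh13, and the endothelial marker sums given above differ in the same direction. Their part in this result was not tested. Of 9 genes of adiponectin folding and secretion, 2 were higher in dermal libraries and 7 did not pass (median 0.17), and the number of calls was 4 without inguinal replicate 2 and 4 after quantile normalization. The 2 were Plod3, a lysyl hydroxylase that modifies the collagen domain (1.00, limma adjusted p = 0.00849), and Gga1, a coat protein of the trans-Golgi network (1.10, adjusted p = 0.00509). The most abundant of this list, the chaperone genes Hspa5 and P4hb, did not pass in the main test (-0.46 and 0.42). A replicate block gave 6 calls in this list.

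C1qtnf3, a relative of adiponectin with the same collagen and C1q domains, was the scarcest member and was found almost only in dermal adipocytes. It had 47 and 65 reads in dermal and 1 and 0 reads in inguinal libraries, or 4.28 and 6.17 CPM against 0.0844 and 0 CPM. Over the summed reads this is a ratio of 115, with exact 95% counting bounds of 20.3 and 4594 that cover counting error only. The fitted log2 fold change of 3.38 (SE 0.33, limma adjusted p = 0.00277) depends on the pseudocount and understates that ratio. C1qtnf3 passed the filter on low values through the dermal libraries alone, so it had to differ. Fibroblasts also express C1qtnf3. The fibroblast sums given above overlapped between the depots, but within each replicate number the dermal sum was the higher. Their part and that of the keratinocyte RNA in this result were not tested.

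In the C1q/TNF family as a whole, 9 of 10 genes were tested, of which 2 were higher in dermal libraries, 1 was lower and 6 did not pass (median 0.30). Besides C1qtnf3, the higher one was Fam132a, which encodes the insulin-sensitizing adipokine adipolin, at 50.1 and 50.9 CPM in dermal adipocytes, against 32.7 and 22.8 CPM in inguinal adipocytes (0.88, limma adjusted p = 0.0288). This call ended without dermal replicate 1 (adjusted p = 0.0987) and without dermal replicate 2 (0.106). With no intensity trend the Fam132a call ended as well (limma adjusted p = 0.0602). C1qtnf9, the family's closest relative of adiponectin in sequence, was lower in dermal libraries. It measured 13.4 and 15.5 CPM in dermal adipocytes, against 46.9 and 72.0 CPM in inguinal adipocytes (-1.98, SE 0.23, limma adjusted p = 0.00387). Capillary endothelial cells also express C1qtnf9. The part of the endothelial RNA was not tested.

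Retn, which encodes resistin, showed no difference that passed. It measured 1036 and 887 CPM in dermal adipocytes, against 1191 and 764 CPM in inguinal adipocytes, and the depots overlapped. The means were 961 ± 105 and 977 ± 302 CPM (SD, n = 2 each), the log2 fold change was 0.01 (SE 0.24, limma adjusted p = 0.988), and the 95% interval ran from -0.56 to 0.57. Replicate 1 was higher than replicate 2 in both depots. Rabepk, Aamdc and Cryz had the nearest pattern. Of the resistin-like genes, Retnla, a product of alternatively activated macrophages and of fat, measured 62.7 and 45.8 CPM in dermal adipocytes, against 47.3 and 39.4 CPM in inguinal adipocytes (limma adjusted p = 0.314), and Retnlg stayed at or under 3 reads in every library. Cap1, a resistin-binding protein known from human cells, did not differ by more than its error (-0.03, SE 0.12).

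Rarres2 encodes prochemerin, which proteases cut to the chemoattractant chemerin. It measured 169.8 and 168 CPM in dermal adipocytes, against 90.7 and 115 CPM in inguinal adipocytes, without overlap. The mean was 1.64 times as high in dermal libraries (log2 fold change 0.72, SE 0.15, limma adjusted p = 0.0247). The call ended without dermal replicate 1 (0.71, adjusted p = 0.117), without dermal replicate 2 (0.73, 0.109). It also ended in a limma fit with a constant prior variance (adjusted p = 0.0616). The genes with the nearest pattern were Rsrp1, Ptk2b and Kmt2b. In the GRCm38 annotation Rarres2 lies on chromosome 6 from 48569696 to 48572789 and its 3′ end overlaps Lrrc61 on the opposite strand. Lrrc61 had 5.04 to 10.1 CPM in the 4 libraries and did not pass. Whether the authors counted by strand is not stated in any source used here, so reads of the overlap cannot be divided between them.

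Both of the chemerin receptors that could be tested were higher in dermal libraries. Cmklr1, the signalling receptor of chemerin, measured 235 and 291 CPM in dermal adipocytes, against 118 and 167 CPM in inguinal adipocytes (0.89, SE 0.20, limma adjusted p = 0.0304), a call that ended without dermal replicate 2 (0.74, adjusted p = 0.134). The Cmklr1 call also ended with no intensity trend (limma adjusted p = 0.0683). Ccrl2, which binds chemerin without signalling, measured 24.0 and 28.0 CPM in dermal adipocytes, against 9.96 and 10.4 CPM in inguinal adipocytes (1.31, SE 0.17, limma adjusted p = 0.00562). Gpr1, a further chemerin receptor, stayed below the filter at 0.190 to 0.873 CPM. Of 6 tested proteases that cut or degrade prochemerin in vitro, 3 were higher in dermal libraries, 1 was lower and 2 did not pass (median 0.65). The share that passed over all tested genes was 16.4%. Plau, the urokinase gene, stood at 0.96, Ctss, which encodes cathepsin S, at 1.55, Mmp9 at 0.98, and Plat, the tissue plasminogen activator gene, at -1.56. Without dermal replicate 1 the calls of Plau, Mmp9 and Plat ended (adjusted p = 0.05495, 0.199 and 0.0603), and without dermal replicate 2 those of Plau and Mmp9 (0.0891 and 0.0824). The Mmp9 call also ended without a filter on low values (limma adjusted p = 0.0619) and with DESeq2 (DESeq2 adjusted p = 0.0552). Ctsl, which encodes cathepsin L and was the most abundant of these proteases, did not pass (0.33), and neither did Ctsk, the cathepsin K gene (0.34). Macrophages express Cmklr1, Ccrl2 and Ctss, and the macrophage marker sums were higher in dermal libraries. Their part was not tested.

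Of 9 tested genes of the renin-angiotensin system, Agt passed and 8 did not, with a median of 0.05 over those 8. A replicate block gave the most calls, 5 with Agt included. The number of calls, Agt included, was 4 without inguinal replicate 1, 2 without inguinal replicate 2, 2 with DESeq2, 2 with scaling by library size only and 3 with scaling to adipocyte markers. Agtr1a, the main receptor of angiotensin II in mouse fat, measured 5.92 and 8.16 CPM in dermal adipocytes, against 8.78 and 16.3 CPM in inguinal adipocytes (-0.74, SE 0.32, limma adjusted p = 0.169). Agtr2 had 0.364 and 1.90 CPM in dermal adipocytes, against 0.507 and 0.485 CPM in inguinal adipocytes, and Agtr1b had at most 1 read in any library, so neither was tested. Enpep and Lnpep, which encode aminopeptidases that trim or bind angiotensins, had the highest means and log2 fold changes of -0.13 and 0.01.

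Nampt was the one member that was lower in dermal adipocytes. Its product makes NMN, the precursor of NAD, inside cells, and is also released, when it is called visfatin. It measured 239.6 and 249 CPM in dermal adipocytes, against 434 and 417 CPM in inguinal adipocytes, with no overlap, and the dermal mean was 0.574 of the inguinal one (log2 fold change -0.80, SE 0.12, limma adjusted p = 0.00960). The call ended without dermal replicate 1 (-0.77, adjusted p = 0.0809) and without dermal replicate 2 (-0.83, 0.0627). It also ended when the columns were scaled to 6 adipocyte markers, which moved the median of all tested genes by 0.22 (-0.56, adjusted p = 0.111). The Nampt promoter is shown for its contrast with that of Lep and Agt, although it shares GGGCGG with the Lep window. In GENCODE M21 the Nampt gene begins at 32819545, so this window, before a later RefSeq start, lies inside the annotated gene.
Nampt promoter, chr12:32820085-32820334, plus strand: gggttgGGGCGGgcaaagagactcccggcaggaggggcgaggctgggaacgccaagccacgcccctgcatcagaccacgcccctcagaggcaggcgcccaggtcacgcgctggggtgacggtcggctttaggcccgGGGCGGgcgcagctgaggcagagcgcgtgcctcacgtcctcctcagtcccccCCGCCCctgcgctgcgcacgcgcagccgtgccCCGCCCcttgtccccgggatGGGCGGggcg

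It held GGGCGG or its reverse complement CCGCCC at 5 places and none of TATAAA, TTGCNNAA or CCAAT, with a GC content of 75.6% against 65.6% for Lep, 55.6% for Agt and 48.8% for Adipoq. Uck2, Sucla2 and Ing3 had the nearest pattern to Nampt. Of 11 other tested genes of NAD synthesis and use, 1 passed, as lower in dermal libraries, and 10 did not pass (median -0.03). It was Sirt1, an NAD-dependent deacetylase, at 37.1 and 38.0 CPM in dermal adipocytes, against 73.5 and 77.3 CPM in inguinal adipocytes (-0.99, SE 0.13, limma adjusted p = 0.00535). Nadk, the NAD kinase gene, and Nnmt, which uses up nicotinamide, were among the most abundant of the list and stood at -0.05 and 0.17. Inflammatory and stress signals raise Nampt in many cells. The immediate early genes and the endothelial markers moved in the same direction as Nampt, with the sums given above, and their part was not tested. Gdap10, a noncoding gene that lies inside Nampt on the same strand, had 15.8 to 20.6 CPM and did not pass.

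Hp, which encodes haptoglobin, the plasma carrier of free haemoglobin and a product of liver and fat, had the largest difference in CPM of the 9. It measured 7252 and 4943 CPM in dermal adipocytes, against 2594 and 1825 CPM in inguinal adipocytes. Both dermal libraries lay above both inguinal ones although replicate 1 was the higher library in either depot. The means were 6098 ± 1633 and 2209 ± 544 CPM (SD, n = 2 each), a fold of 2.76, and the log2 fold change was 1.46 (SE 0.28, limma adjusted p = 0.0198). Within replicate number 1 it was 1.48 and within replicate number 2 it was 1.44. The call ended without dermal replicate 1 (1.18, adjusted p = 0.0820) and without a filter on low values (adjusted p = 0.0522). The nearest patterns were those of Ccl6, a chemokine gene of myeloid cells, Mup7, a major urinary protein gene whose reads may be shared with near-identical copies, and Pfkfb4.

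Among the other genes of haem and haemoglobin scavenging, a receptor pair was higher in dermal libraries. Cd163, the macrophage receptor of haptoglobin bound to haemoglobin, measured 132 and 135 CPM in dermal adipocytes, against 48.1 and 47.4 CPM in inguinal adipocytes (1.48, SE 0.12, limma adjusted p = 0.00182). Lrp1, a broad endocytic receptor that takes up haemopexin with haem, measured 1116 and 1085 CPM in dermal adipocytes, against 403.7 and 455 CPM in inguinal adipocytes (1.36, SE 0.14, limma adjusted p = 0.00311). Of the 8 genes of haem and haemoglobin scavenging beside Hp, these 2 were higher and 6 did not pass (median 0.55), among them Hmox1, which degrades haem (-0.17), and the ferritin gene Ftl1 (0.21). Calls in the list, Hp included, numbered 3, and 5 without inguinal replicate 2. Red blood cell genes went against Hp: all 5 markers were lower in dermal libraries, with sums of 81.8 and 49.3 CPM against 198 and 378 CPM, and 1 of them, Hbb-bt, lost its call under 3 alternatives, among them without dermal replicate 2. The red blood cell markers Hba-a1 and Hba-a2 had the same range of log2 fold changes over the alternatives, -2.53 to -1.55. They may therefore count the same reads under 2 symbols. Cd163 is itself one of the macrophage markers. Neutrophils store haptoglobin, and of 6 neutrophil markers 1, Csf3r, was higher in dermal libraries, with sums of 7.46 and 9.87 CPM against 4.39 and 4.36 CPM. The Csf3r call ended without dermal replicate 2 (limma adjusted p = 0.0723). Mpo and Ngp had at most 3 reads in any library. Of 4 liver markers 2 were tested, of which Alb was higher in dermal libraries and 1 did not pass. Alb measured 156 and 156 CPM in dermal adipocytes, against 79.4 and 37.6 CPM in inguinal libraries, whereas Ttr had 0 or 1 read. The Alb call ended with no intensity trend (limma adjusted p = 0.0583). The part of neutrophil or liver RNA in the Hp result was not tested.

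Ccdc80 encodes a secreted matrix glycoprotein of adipocytes and fibroblasts. It measured 2889.8 and 3024 CPM in dermal adipocytes, against 1792 and 1659 CPM in inguinal adipocytes, without overlap, with means of 2957 ± 94.8 and 1726 ± 93.5 CPM (SD, n = 2 each). The log2 fold change was 0.78 (SE 0.17, limma adjusted p = 0.0286). The call ended without dermal replicate 1 (0.81, adjusted p = 0.155), dermal replicate 2 (0.74, 0.2002) or inguinal replicate 2 (0.72, 0.0673), and without a filter (0.0831). Mst1r, Ctsa and Hist1h2be had the nearest pattern. Fibroblasts also express Ccdc80. Of the 9 fibroblast and progenitor markers none passed, 4 lay above 0 and 5 below, with a median of -0.13. The sums of these markers given above overlapped between the depots, but within each replicate number the dermal sum was the higher. Their part in the Ccdc80 result was not tested.

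**Figure D3:**
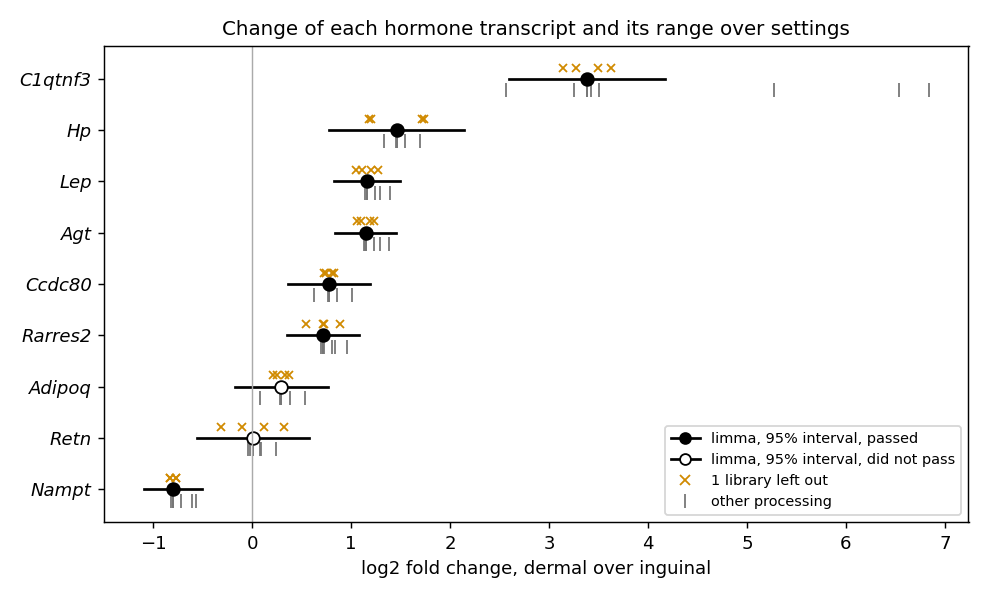
Log2 fold change of each hormone transcript, dermal over inguinal, with its 95% limma interval (2 libraries per depot), the values with 1 library left out (crosses) and those under other processing (ticks). Nampt stays below 0 and all members but Retn and Nampt stay above 0 in every setting shown, from -0.83 for Nampt to 6.84 for C1qtnf3.

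Per kilobase of merged exon length, the order of the members differed between the depots. In dermal adipocytes Hp led at 4516 and 3078 CPM per kb, followed by Adipoq at 2712 and 2870.2, Ccdc80 at 673 and 704, and Retn at 656 and 561 CPM per kb. In inguinal adipocytes Adipoq led at 2407 and 2147 CPM per kb, followed by Hp at 1615 and 1136, Retn at 754 and 484, and Ccdc80 at 417 and 387 CPM per kb. In neither depot did the values of Hp and Adipoq overlap, and those of Ccdc80 and Retn did not overlap either. Lep stood at 145 and 155 CPM per kb in dermal and 72.3 and 62.3 CPM per kb in inguinal adipocytes, and Agt at 124 and 131 against 60.7 and 54.1 CPM per kb. Nampt was number 8 of the 9 in dermal adipocytes, at 47.4 and 49.3 CPM per kb, and number 5 in inguinal adipocytes, at 85.9 and 82.5 CPM per kb, where it lay above Lep and Agt. Rarres2 had 63.9 and 63.3 CPM per kb in dermal and 34.1 and 43.4 in inguinal adipocytes. Among the genes with a length, Hp ranked 7 in dermal and 14 in inguinal adipocytes and Lep 212 and 613. The length is that of all annotated exons, so a gene whose adipocyte isoform is shorter is understated.

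**Figure D4:**
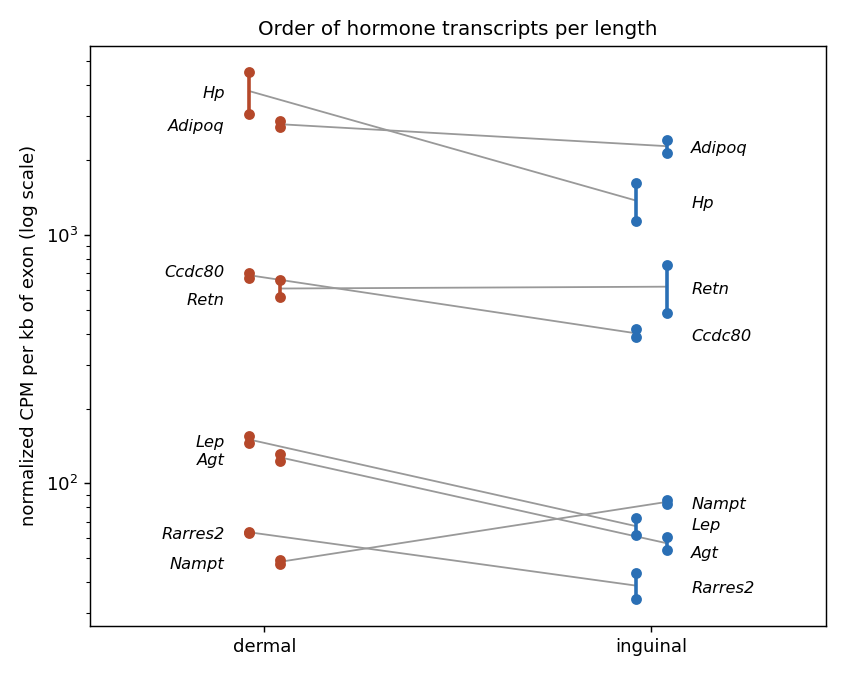
Level per kb of exon (log axis) of 8 hormone transcripts in the dermal and inguinal libraries, 2 points per depot, with lines joining the depot means and points set slightly apart along the horizontal axis for legibility. Hp and Adipoq change places, Nampt lies lowest in dermal adipocytes but above Lep, Agt and Rarres2 in inguinal adipocytes, and C1qtnf3, at 2.04 CPM per kb or less on average, is left out.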

How the data were processed

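The members and gene lists were chosen with earlier results of these data known. Per the labels' protocols, Trizol and spin columns gave total RNA, from which stranded libraries were prepared. TopHat2 2.0.12, featureCounts with Subread 1.4.6, edgeR, Picard 1.127 and the mm10 build are listed, per the submitters' processing notes, without roles or settings. The deposited values are a signal per gene: CPM to which the authors applied another factor besides depth, since columns sum to 960745 to 1074951. In every column 100.0% of values were whole multiples of 1 read within 0.001, so whole reads were recovered. On these edgeR 4.0.16 called 2060 genes and DESeq2 1.42.0 called 1990, against 2094 with the main test, limma 3.58.1 (R 4.3.3), which used an intensity trend and log2(CPM + 0.5). That log2 scale understates the change of low genes.

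Groups came from the sample titles. No label ties a library to its own animals. The p-values therefore reflect the scatter among these 4 libraries, which can be technical. Counts of replicate libraries differed far beyond sampling noise (chi-square per degree of freedom 20.8 in dermal and 34.8 in inguinal libraries). Of 204 list entries, 196 matched the table, a few through older symbols. Named were all members and receptors, the passing genes of each list (the 4 with the smallest adjusted p where over 6 passed), its 2 most abundant genes, and the 3 genes nearest to each member in pattern, which are not given for C1qtnf3, whose inguinal values rest on the pseudocount. The text prints a part of these, and Ctsk, Hmox1 and the marker genes it names were picked after their values were seen. Lengths came from GENCODE M21 on GRCm38, which mm10 names too. Promoters of 6 members were found in RefSeq tables for GRCm38.p6, those of Lep, Adipoq, Retn, C1qtnf3, Agt and Nampt. The Retn window, with none of the searched motifs, and the C1qtnf3 window, with TATAAA, were not printed. The tests were checked for recovery, direction and size of planted changes on simulated counts, with independent libraries and equal spread for every gene. That check set no limit on false calls, and a shared deviation of same-numbered libraries was not simulated. The alternatives included other pseudocounts, filters and scalings, count tests, a replicate block and leaving out each library; scaling to 6 adipocyte markers (Plin1, Pparg, Fabp4, Cidec, Lipe and Pnpla2) was chosen after seeing the data.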

Additional observations from a re-analysis of the deposited data

How the results depend on the processing

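Lep and Agt kept their direction and their call under all 15 alternatives, with log2 fold changes of 1.05 to 1.395 and 1.07 to 1.38. C1qtnf3, whose direction was fixed by passing the filter through the dermal libraries alone, ranged from 2.56 to 6.84 over 14 alternatives, and a filter at 5 CPM removed it. With libraries left out in turn the ranges were 1.05 to 1.27 for Lep, 0.21 to 0.38 for Adipoq, 3.14 to 3.62 for C1qtnf3, 0.55 to 0.89 for Rarres2, 1.07 to 1.23 for Agt, -0.83 to -0.77 for Nampt, 1.18 to 1.74 for Hp and 0.72 to 0.83 for Ccdc80. Retn, whose estimate lay near 0, changed sign with edgeR (-0.025) and DESeq2 (-0.039) on recovered reads, and ranged from -0.31 to 0.33 with libraries left out, below 0 without dermal replicate 1 (-0.11) and without inguinal replicate 2 (-0.31). Calls were lost for Rarres2 without the intensity trend (0.72), for Hp (1.46) and Ccdc80 (0.78) without a filter, where more genes were tested, and for Nampt on the scaling to adipocyte markers (-0.56); the cause was not tested. In those 6 markers Fabp4 took 49.0% and 57.0% of the sum in dermal and 70.6% and 71.8% in inguinal libraries, so that scaling mainly follows Fabp4.

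All genes called numbered 2094, or 1023 to 2636 with a library left out, of which dermal replicate 1 (1023) and dermal replicate 2 (1037) gave the lowest counts. Of the 9 members 7 were called, against 3 when dermal replicate 1 was dropped, 4 for dermal replicate 2 and 6 or 7 for an inguinal library; a lone library is assumed to vary like the other depot. Of 104 tested list genes that are no members 34 were called, or 21 (the lowest, for dermal replicate 2) to 42 when 1 library was dropped. In that family 18 of the 34 calls held in every alternative and none changed direction. Over all tested genes 16.4% were called in the main test, and the lists were chosen with earlier results of these data known. With the replicate number as a replicate block 4726 genes and 56 list genes were called, and no member changed its call. That block gave 10 calls among the transcription factor genes in place of 5. In the haem scavenging list it gave 5 in place of 3, and in the NAD list 4 in place of 2, members included. The labels do not say that a number pairs libraries, and same-numbered libraries deviated together from their depot means across genes (correlation 0.46).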

Other observations

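Further secreted factors of adipocytes split between the depots. Of 25 tested genes of that list, 3 were higher in dermal libraries, 6 were lower and 16 did not pass, with a median log2 fold change of 0.05. Without dermal replicate 2 the calls numbered 5 in place of 9: those of Angptl4, Apln, Metrnl and Nrg4 were lost. Tnf, an inflammatory cytokine gene that macrophages express, measured 64.9 and 64.8 CPM in dermal adipocytes, against 12.3 and 13.9 CPM in inguinal libraries (2.27, SE 0.14, limma adjusted p = 0.00140). Il6, an inducible cytokine gene, went the other way, at 16.9 and 18.0 CPM in dermal adipocytes, against 127 and 122 CPM in inguinal libraries (-2.80, SE 0.13, limma adjusted p = 0.000664). Saa3, which encodes an acute-phase serum amyloid A, measured 21.1 and 16.03 CPM against 76.8 and 76.6 CPM (-2.03, limma adjusted p = 0.00191). Hp is, like Saa3, an acute-phase gene, and it was higher in dermal libraries. The 2 most abundant genes of the list, Cfd, which encodes adipsin, and Lpl, which encodes lipoprotein lipase, stood at -0.04 and 0.20 and did not pass.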
